A study of Mus musculus with 4 samples.

Results

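The 9 genes described here store, import or buffer metals or act in the antioxidant response: the metallothioneins Mt1, Mt2 and Mt3, the ferritin chains Fth1 and Ftl1, the transferrin receptor Tfrc, and the enzymes Hmox1, Nqo1 and Txnrd1. They were taken from the table by their symbols and are 9 of the 14949 genes with reads, with 33 of the 46637 isoforms that name a gene. They were followed in cultured mouse neural stem cells in which the terminal uridylyltransferase gene Tut1, the p53 gene Trp53 or both carried loxP-flanked (floxed) alleles. Total RNA was read as PCR-amplified cDNA on a Nanopore sequencer, with 1 library in each of 4 groups. The control was Tut1f/f cells given empty lipid nanoparticles (LNP). The other libraries were labelled Tut1 KO (Tut1f/f with Cre-LNP), P53 KO (p53f/f with Cre-LNP) and Tut1 and P53 KO (Tut1f/f;p53f/f with Cre-LNP), where the nanoparticles carried mRNA of the recombinase Cre, and every treatment lasted 3 days. The cells were primary cultures of neocortex from floxed embryos, kept in bFGF and EGF, and the control carried the same floxed Tut1 allele as the library labelled Tut1 KO. No library paired Cre-LNP with unfloxed cells, and no Trp53-floxed cells were given empty LNP, so Cre mRNA, genotype and the control library itself cannot be told apart in a comparison with the control.

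Metallothioneins are small cysteine-rich proteins that hold zinc and copper, and Mt1 and Mt2 are induced in most tissues by metals and oxidants through the transcription factor MTF1, whereas Mt3 is the form known from the brain. Ferritin stores iron in shells of its heavy chain (Fth1, which oxidises iron) and light chain (Ftl1). The transferrin receptor brings iron into cells, and iron regulatory proteins tie both sides together by binding iron-responsive elements in these mRNAs. Hmox1 opens haem and frees its iron, Nqo1 reduces quinones and Txnrd1 reduces thioredoxin. All of these enzymes are known targets of NRF2, which acts at antioxidant response elements.

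Each library held between 3936827 and 5125888 reads, of which 2863392 to 4244467 fell on a named gene. Tut1 had 37 reads in the control, 11 in the library labelled Tut1 KO, 14 in P53 KO and 27 in Tut1 and P53 KO, so reads of the whole gene did not sort the libraries by their Tut1 label. Cre removes a single exon of Tut1 and the table does not say which exons a read covers, so these reads need not fall and do not check the deletion, which the study measured at that exon. Trp53 had 175, 67, 10 and 19 reads, lowest in both libraries labelled with p53 deletion. The control stood apart from the rest: entries without a gene took 17.2% of its reads and 27.3% to 30.2% of the others, and the ribosomal RNA gene CT010467.1 took 18.7% of its gene reads and 5.46% to 9.75% of the others. Xist had 44 and 49 reads in Tut1 KO and P53 KO and 0 in the other pair, and Y-linked Kdm5d had 0 reads in the first pair and at least 96 in each of the other pair. The cultures thus also differed in sex, and none of the 9 genes lies on X or Y. All 9 markers of neural stem cells had reads in every library, with a summed level of 11590 to 13389 CPM (reads per 1000000 gene reads, with library sizes scaled by TMM). Most of that sum was Fabp7 (9382 to 11382 CPM), and other markers of the list moved between the control and the rest. Hes1 was at 149 CPM in the control and 500, 455 and 452 in the others, Nes at 140 and 306, 289 and 199, Sox2 at 212 and 379, 387 and 270, and Vim at 1265 and 758, 619 and 622. Microglial, endothelial, mesenchymal and erythroid lists summed to at most 1.76 CPM. Of the 7 astrocyte markers, 6 had reads, Gfap was at 0 in every library, and the sum was 448 CPM in the control, 292, 263 and 377 in Tut1 KO, P53 KO and Tut1 and P53 KO. The 7 oligodendrocyte lineage markers all had reads and summed to 385, 642, 732 and 525 CPM in the same order. Neuronal markers summed to 73.8 to 89.5 CPM, with Rbfox3 at 0 throughout. These markers and both glial sums moved between the control and the others, as genes below did, and their part in the results was not tested. In such bulk cultures fewer cells of a kind and less RNA per cell cannot be told apart.

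The metallothioneins Mt1 and Mt2 were higher in all 3 libraries with Cre mRNA than in the control, by 1.77- to 1.99-fold for Mt1 and 2.12- to 2.29-fold for Mt2, while Mt3 lay within 1.27-fold of the control. The genes sit side by side on chromosome 8 (GRCm38) in the order Mt4, Mt3, Mt2 and Mt1, with Mt2 and Mt1 5.5 kb apart and Mt3 a further 18.5 kb away. Mt4, the family member of squamous epithelium, had 0 reads in every library. Because Mt1 and Mt2 moved together and Mt3 less, the bases before each start in RefSeq (GRCm38.p6) are shown, with the letters TGCACNC or TGCGCNC of the metal response element in capitals on either strand. Each stops before the first annotated base of the gene. For Mt2 that base is 94172664, and the bases between the window and it were not searched. They come from chr8:94178839-94179081, chr8:94172368-94172617 and chr8:94152357-94152606, all on the plus strand.
Mt1: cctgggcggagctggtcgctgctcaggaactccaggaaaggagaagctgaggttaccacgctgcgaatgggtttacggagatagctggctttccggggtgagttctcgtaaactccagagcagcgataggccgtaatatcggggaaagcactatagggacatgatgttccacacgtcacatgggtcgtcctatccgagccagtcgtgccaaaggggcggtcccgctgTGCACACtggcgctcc
Mt2: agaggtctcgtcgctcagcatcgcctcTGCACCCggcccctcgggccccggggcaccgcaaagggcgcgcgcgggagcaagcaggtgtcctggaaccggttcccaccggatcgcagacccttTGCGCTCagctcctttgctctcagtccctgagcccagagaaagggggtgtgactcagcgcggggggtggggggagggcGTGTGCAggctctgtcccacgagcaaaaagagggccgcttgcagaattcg
Mt3: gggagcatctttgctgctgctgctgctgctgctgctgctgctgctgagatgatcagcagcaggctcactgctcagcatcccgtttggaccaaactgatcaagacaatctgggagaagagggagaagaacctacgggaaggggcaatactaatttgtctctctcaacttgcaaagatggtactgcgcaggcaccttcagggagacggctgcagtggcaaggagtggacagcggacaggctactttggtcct
The Mt1 window held 1 match, the Mt2 window 3 and the Mt3 window 0. Among the other genes only the first of the Tfrc windows held any, with 2. Of 32851 RefSeq promoter windows of 250 bases before the start, 21.4% held at least 1 and 1.26% at least 3 matches, so 3 matches were uncommon and 1 was not. The annotated starts lie upstream of further matches in the 5′ UTR of the main transcripts, which held 4 matches in Mt1-201, 3 in Mt2-201 and 3 in Mt3-201. Of other genes' 5′ UTRs trimmed to the same length, 0.271%, 0.732% and 0.843% held as many. The first pair in Mt1-201, at bases 10 to 34 of the transcript, reads as follows.
Mt1-201: TGCACTCcgcccgaaaagTGCGCTC
Matches before the annotated start and in the annotated 5′ UTR together, all 3 genes held such letters. Where transcription started in these cells was not tested, so matches in the annotated 5′ UTR need not be transcribed. A match is a description of the sequence, not of binding.

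Mt1 had 2631 reads in the control, 3539 in Tut1 KO, 4591 in P53 KO and 3612 in Tut1 and P53 KO, although the control was the deepest library. On the TMM scale these were 661.5, 1168, 1318 and 1224 CPM. The control lay below the other 3, whose exact 95% counting intervals began at 1130 CPM. Relative to the control, the log2 ratio of Mt1 was 0.82 in Tut1 KO (95% interval 0.75 to 0.89), 0.99 in P53 KO (0.92 to 1.06) and 0.89 in Tut1 and P53 KO (0.81 to 0.96). With 1 library a group these intervals cover counting error only, reads of PCR products are not independent molecules, and no ratio between libraries has a replicate check.

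Mt2 had 721 reads in the control, then 1198, 1337 and 1226 reads, or 181.3, 395.5, 383.7 and 415.5 CPM. The 3 libraries with Cre mRNA overlapped in their intervals and lay clear of the control. For Mt2 the log2 ratios to the control were 1.13 (0.99 to 1.26), 1.08 (0.95 to 1.21) and 1.20 (1.06 to 1.33). Mt2 met the ratio rule, at least 2-fold with an interval that leaves out no change, in all 3 comparisons with the control, alone among the 9 genes under TMM or library totals. With DESeq2 size factors (-1.75, -1.52 and -1.03) or without the ribosomal RNA gene in the library size (-1.76, -1.56 and -1.07), Txnrd1 met it on the lower side in all 3 as well. That rule picked 7.18% of 9882 genes as higher in all 3 and 5.76% as lower, so 1 of 9 on the higher side is near the share of all genes. Of the 9882 genes, 1176, 1216 and 894 had a higher ratio than Mt2 in the 3 comparisons, and 1750, 1380 and 1356 a higher one than Mt1.

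Mt3 had 804, 777, 714 and 655 reads, or 202.2, 256.5, 204.9 and 222.0 CPM. Tut1 KO was the highest and the control and P53 KO were level. Its log2 ratios to the control were 0.34 (0.20 to 0.49), 0.020 (-0.13 to 0.17) and 0.14 (-0.016 to 0.29), and none reached 2-fold. Ratios between family members within a library need no scaling between libraries. There were 0.897 Mt2 reads (95% interval 0.810 to 0.993) for each Mt3 read in the control, 1.54 (1.41 to 1.69) in Tut1 KO, 1.87 (1.71 to 2.05) in P53 KO and 1.87 (1.70 to 2.06) in Tut1 and P53 KO. The control interval lay below the other 3. The ratio of Mt1 to Mt2 reads moved less, from 3.65 (3.36 to 3.97) in the control to 2.95, 3.43 and 2.95, with intervals of the control and P53 KO overlapping. More than 95% of the reads of each metallothionein belonged to 1 transcript in every library (Mt1-201, Mt2-201 and Mt3-201), and none of their isoforms changed its share by 10 points.

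**Figure D1:**
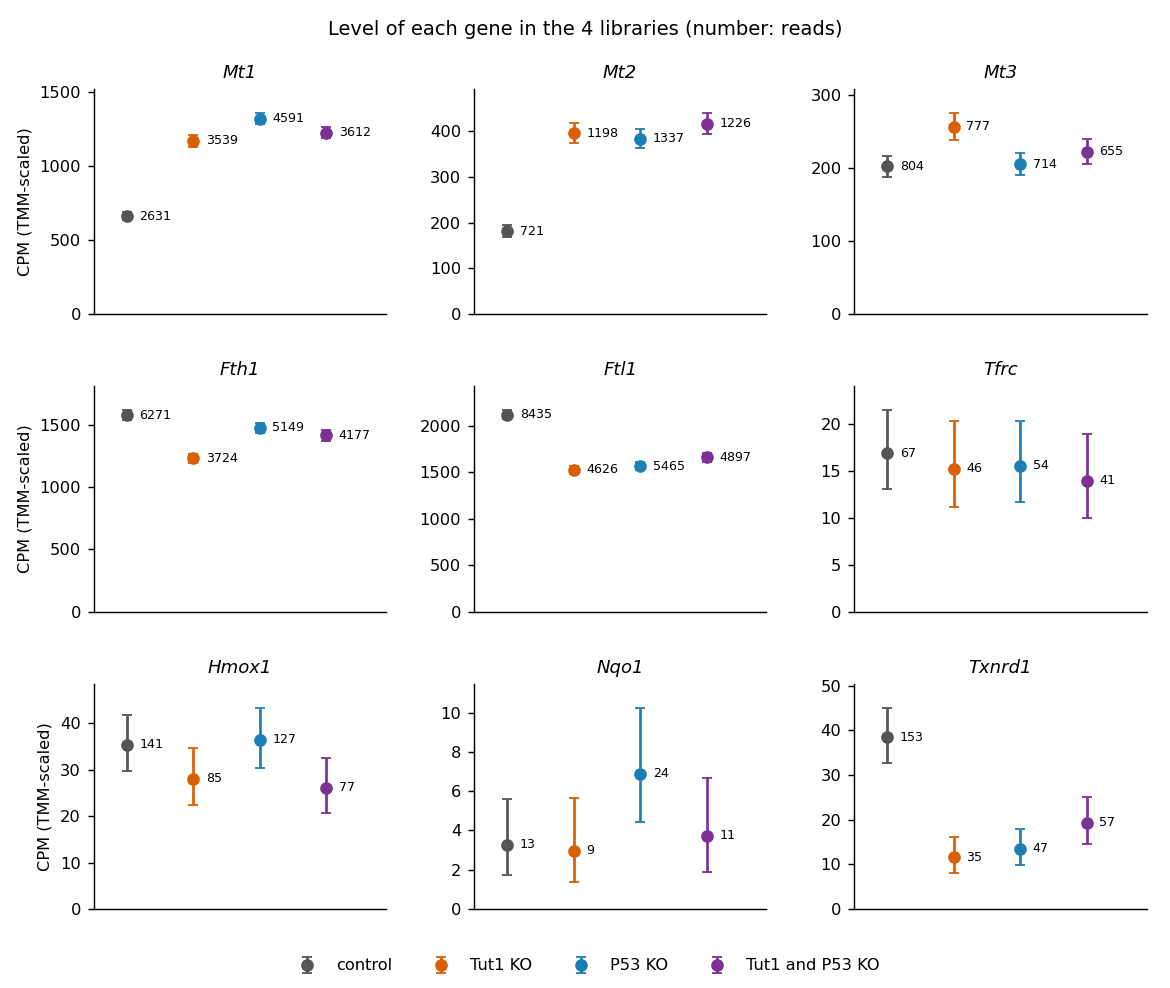
Level of each of the 9 genes in the 4 libraries in TMM-scaled CPM (vertical axes, each from 0), with exact 95% Poisson intervals that cover counting error only and the read number beside each point. Mt1 and Mt2 are lowest and Txnrd1 is highest in the control, at 661.5, 181.3 and 38.5 CPM.

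The light chain Ftl1 was lower than the control in the libraries with Cre mRNA, by less than 2-fold in each. The heavy chain Fth1 was lower on the TMM scale, also by less than 2-fold. With library totals its log2 ratio was near level in P53 KO (0.022) and in Tut1 and P53 KO (-0.018). The transferrin receptor did not differ beyond counting error. These mRNAs are shown by their iron-responsive elements, a hairpin whose loop begins CAGTG, since these are what the genes share. They were found as a C, 5 bases, the loop CAGTGN and 5 bases that pair with the first 5, on the transcript strand, and are printed with 5 flanking bases on either side and the loop in capitals. The Fth1 and Ftl1 elements lie in the 5′ UTR, at chr19:9982733-9982759 (plus strand) and chr7:45459780-45459806 (minus strand) of GRCm38. The 4 Tfrc matches lie in the 3′ UTR between chr16:32631220-32631737 (plus strand). Elements that depart from this pattern were not searched for.
Fth1: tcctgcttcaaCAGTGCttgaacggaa
Ftl1: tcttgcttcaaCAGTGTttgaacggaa
Tfrc, element 1: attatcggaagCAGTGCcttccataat
Tfrc, element 2: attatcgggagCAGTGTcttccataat
Tfrc, element 3: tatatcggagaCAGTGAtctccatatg
Tfrc, element 4: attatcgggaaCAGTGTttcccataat
Such a match was present in 0.0589% of 5′ UTRs at least as long as that of Fth1, in 0.0553% for Ftl1, and 4 or more were present in 0.0251% of 3′ UTRs at least as long as that of Tfrc. In cells the ferritin elements are known to hold back translation and the Tfrc elements to stabilise the mRNA when iron is scarce, and read counts report only on the mRNA.

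Fth1 had 6271 reads in the control, 3724 in Tut1 KO, 5149 in P53 KO and 4177 in Tut1 and P53 KO, or 1577, 1230, 1478 and 1416 CPM. The control was the highest and Tut1 KO the lowest, with the other 2 between them. The log2 ratios to the control were -0.36 (-0.42 to -0.30), -0.094 (-0.15 to -0.040) and -0.16 (-0.21 to -0.099). With the library total in place of TMM, the median of all genes was 0.116, 0.097 and 0.124 in the 3 comparisons. The Fth1 ratio was then -0.24, 0.022 and -0.018. So in P53 KO its direction depends on the scaling, and in Tut1 and P53 KO it was near level with library totals.

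Ftl1 had 8435, 4626, 5465 and 4897 reads, or 2121, 1527, 1568 and 1660 CPM. The control stood above the other 3, which lay close together. In log2 terms Ftl1 stood to the control at -0.47 (-0.53 to -0.42), -0.44 (-0.48 to -0.39) and -0.35 (-0.40 to -0.30). Ftl1-ps1, a retrocopy on chromosome 13 that shares 83.3% of its 31-base words with Ftl1 and can trade reads with it, had 449, 215, 248 and 160 reads. Adding annotated copies to the gene left each ferritin ratio on the same side and under 2-fold. Fth1 reads for each Ftl1 read were 0.743 (0.719 to 0.768) in the control and 0.805 (0.771 to 0.841), 0.942 (0.907 to 0.979) and 0.853 (0.818 to 0.889) in the others, so light chain reads were fewer relative to heavy chain reads in every library with Cre mRNA. Mt1 reads for each Fth1 read were 0.420 in the control and 0.95, 0.892 and 0.865 in the others, which sets the metallothionein and ferritin changes side by side within each library.

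Tfrc had 67, 46, 54 and 41 reads, or 16.9, 15.2, 15.5 and 13.9 CPM, and all 4 intervals overlapped. The log2 ratios to the control were -0.15 (-0.72 to 0.41), -0.12 (-0.67 to 0.42) and -0.28 (-0.88 to 0.30), and every interval spanned no change. Its isoforms differed more than its level. The full-length coding transcript Tfrc-201 took 38 of 67 reads in the control (56.7%, Wilson 95% interval 44.8% to 67.9%), 39 of 46 in Tut1 KO (84.8%, 71.8% to 92.4%), 46 of 54 in P53 KO (85.2%, 73.4% to 92.3%) and 33 of 41 in Tut1 and P53 KO (80.5%, 66.0% to 89.8%). The control was the lowest. The retained intron transcript Tfrc-204 made up 13 reads there and 5, 2 and 2 in the others, and an isoform named by a read made up 16 and then 2, 6 and 6. In CPM, Tfrc-201 was 9.56 in the control and 12.9, 13.2 and 11.2 in the others, with log2 ratios to the control of 0.43 (-0.25 to 1.11), 0.47 (-0.19 to 1.13) and 0.23 (-0.49 to 0.94), so a change in the level of this transcript was not shown in either direction. Fisher's two-sided exact test with Benjamini-Hochberg adjustment gave adjusted p values of 0.0175, 0.00765 and 0.0874 for Tfrc-201 in the 3 comparisons. The isoform named by a read was called in Tut1 KO, 19.5 points below the control (adjusted p = 0.0493). This test compares libraries, not conditions.

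The 3 redox enzymes did not move together. Txnrd1 was lower in every library with Cre mRNA, Hmox1 was at 0.736 to 1.03 times the control, and Nqo1 was higher in P53 KO at a depth of 24 reads. Hmox1 had 141, 85, 127 and 77 reads, or 35.5, 28.1, 36.5 and 26.1 CPM. The control and P53 KO were level, and the 2 libraries labelled Tut1 KO and Tut1 and P53 KO were lower, with intervals that overlapped those of the other pair. Its log2 ratios to the control were -0.34 (-0.74 to 0.061), 0.040 (-0.32 to 0.40) and -0.44 (-0.86 to -0.031). Nqo1 had 13, 9, 24 and 11 reads, or 3.27, 2.97, 6.89 and 3.73 CPM. P53 KO was the highest and its interval of 4.41 to 10.3 CPM overlapped each of the others. Its log2 ratio to the control was 1.08 (0.044 to 2.17) in P53 KO, which met the ratio rule, against -0.14 (-1.54 to 1.20) and 0.19 (-1.11 to 1.46) in the others. Without the ribosomal RNA gene in the library size the Nqo1 ratio was 1.03 and no longer met it.

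Txnrd1 had 153 reads in the control, 35 in Tut1 KO, 47 in P53 KO and 57 in Tut1 and P53 KO, or 38.5, 11.6, 13.5 and 19.3 CPM. The control interval of 32.6 to 45.1 CPM lay above all others. The log2 ratios to the control were -1.74 (-2.31 to -1.20), -1.51 (-2.02 to -1.03) and -0.99 (-1.46 to -0.55), the last just under 2-fold. Of the 9882 genes, 427 had a lower ratio than Txnrd1 in Tut1 KO, 755 in P53 KO and 1032 in Tut1 and P53 KO. Between Tut1 and P53 KO and P53 KO the log2 ratio was 0.52 (-0.064 to 1.11).

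The annotated Txnrd1 transcripts with the most reads have different first exons, so the bases before their starts are shown from RefSeq (GRCm38.p6, plus strand), with the antioxidant response element letters TGACNNNGC, on either strand, in capitals. The first, at chr10:82858956-82859205, ends just before the first base of Txnrd1-208 and overlaps the first bases of Txnrd1-201, and the second, at chr10:82860091-82860300, precedes Txnrd1-206.
Txnrd1, first start: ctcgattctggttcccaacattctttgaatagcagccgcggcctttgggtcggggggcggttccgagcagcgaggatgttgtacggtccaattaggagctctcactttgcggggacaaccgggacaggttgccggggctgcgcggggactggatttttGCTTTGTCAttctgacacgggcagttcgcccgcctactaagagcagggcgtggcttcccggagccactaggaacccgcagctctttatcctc
Txnrd1, second start: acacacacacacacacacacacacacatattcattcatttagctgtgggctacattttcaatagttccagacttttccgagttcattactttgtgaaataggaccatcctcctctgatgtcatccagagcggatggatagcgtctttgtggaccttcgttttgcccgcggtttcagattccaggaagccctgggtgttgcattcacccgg
The first window held 1 match, 92 bases before the start, and the second none. At least 1 match was found in 10.2% of the 32851 windows of 250 bases. The Mt2 window held 1 as well, and those of the other genes, Nqo1 included, held 0. Bases further upstream were not searched, so 0 matches does not mean that a gene lacks such an element. The set of RefSeq promoters used here held 8 of the 9 genes, with 12 windows in all, and Hmox1 was not in that set.

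Txnrd1-201, which spans chr10:82859179-82897712, took 52 of 153 reads in the control (34.0%, 27.0% to 41.8%), 24 of 35 in Tut1 KO (68.6%, 52.0% to 81.4%), 26 of 47 in P53 KO (55.3%, 41.2% to 68.6%) and 36 of 57 in Tut1 and P53 KO (63.2%, 50.2% to 74.5%). Txnrd1-206, which spans chr10:82860301-82897710, took 43 reads (28.1%, 21.6% to 35.7%), 1 read (2.86%, 0.506% to 14.5%), 2 reads (4.26%, 1.17% to 14.2%) and 12 reads (21.1%, 12.5% to 33.3%). The Txnrd1-206 share was lowest in the libraries labelled Tut1 KO and P53 KO. Compared directly, the share in Tut1 and P53 KO was 16.8 points above that in P53 KO, which did not pass the exact test (adjusted p = 0.237). Txnrd1-208 had 20, 2, 5 and 0 reads, and 0 of 57 allows a share of up to 6.31% (Wilson). In CPM, Txnrd1-201 was 13.1, 7.92, 7.46 and 12.2, and Txnrd1-206 was 10.8, 0.330, 0.574 and 4.07. Relative to the control, the log2 ratio of Txnrd1-206 was -5.03 in Tut1 KO (-10.4 to -2.48) and -4.24 in P53 KO (-7.33 to -2.30), each from 1 or 2 reads, while that of Txnrd1-201 was -0.72 (-1.49 to 0.0014) and -0.81 (-1.55 to -0.10). In Tut1 and P53 KO, Txnrd1-206 was at -1.41 (-2.47 to -0.46) and Txnrd1-201 at -0.10 (-0.75 to 0.54). So most of the lower gene total came from isoforms other than Txnrd1-201, as the reads were assigned. The counts do not say whether a read reached the first exon, so assignment of reads to these starts was not checked.

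By the exact test, the Txnrd1-201 share was 34.6 points higher than the control in Tut1 KO (adjusted p = 0.00328), 21.3 points in P53 KO (0.0608) and 29.2 points in Tut1 and P53 KO (0.00445). The Txnrd1-206 share differed by -25.2 points in Tut1 KO (0.0075), -23.8 points in P53 KO (0.00322) and -7.05 points in Tut1 and P53 KO (0.7). Txnrd1-208 differed by -13.1 points in Tut1 and P53 KO (0.0259). An isoform was called at an adjusted p under 0.05 with at least 10 points. In all, 4 isoforms of the 9 genes were called in Tut1 KO against the control, 2 in P53 KO and 2 in Tut1 and P53 KO, every one of Txnrd1 or Tfrc. The 9 genes had 33 isoforms, of which only a part had reads enough to test. Calls took in 9.35%, 9.9% and 6.96% of the isoforms tested in those comparisons, and 1.4% between Tut1 and P53 KO and P53 KO, where none of the 9 genes had one. All other isoforms of the 9 genes with reads enough to test moved by under 10 points or missed the threshold.

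**Figure D2:**
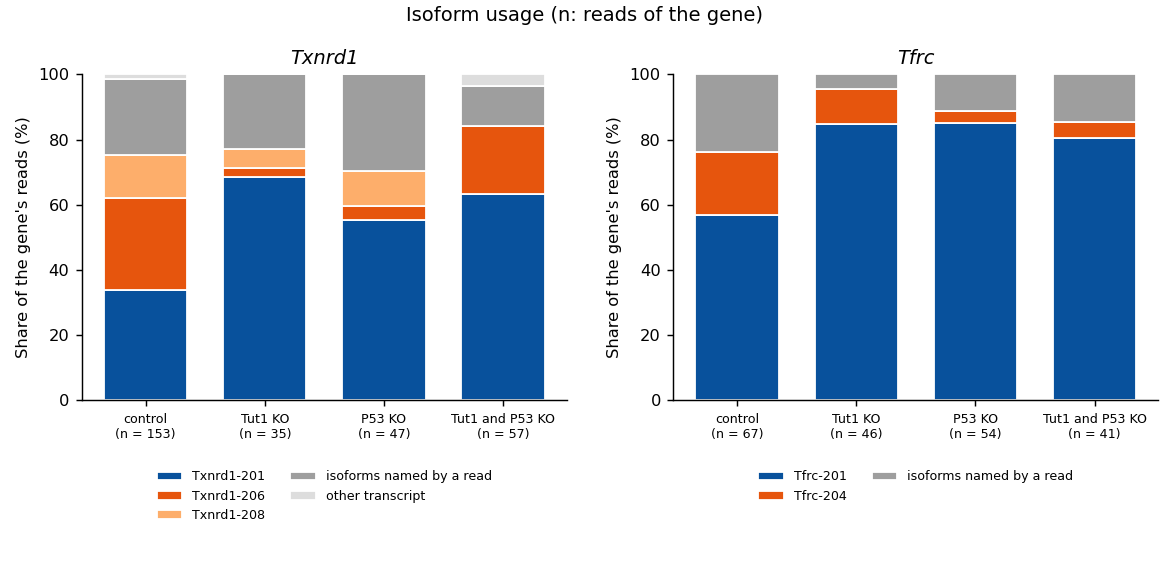
Share of each gene's reads (vertical axes, %) taken by its isoforms in the 4 libraries, for Txnrd1 (left) and Tfrc (right), with the gene's reads below each bar. Txnrd1-206 takes 28.1% in the control, 2.86% and 4.26% in Tut1 KO and P53 KO and is 21.1% in Tut1 and P53 KO.

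Across the 9 genes the ratio rule marked Mt2 as higher and Txnrd1 as lower in Tut1 KO against the control, 1 of 9 in each direction. It marked 12.7% of the 9882 genes as higher and 13.3% as lower, so these counts are near the background. In P53 KO it marked Mt2 and Nqo1 as higher and Txnrd1 as lower, beside 12.5% and 15.3% of all genes. In Tut1 and P53 KO it marked Mt2 as higher and none as lower, beside 10.3% and 9.76%. The 3 comparisons share the control library. Between Tut1 and P53 KO and P53 KO, which do not involve the control, it marked none of the 9, beside 4.68% and 2.56% of all genes. In that comparison Mt1, Mt2, Mt3, Fth1 and Ftl1 all lay within 0.12 of no change on the log2 scale, Hmox1 was at -0.48 (-0.91 to -0.062) and Nqo1 at -0.89 (-2.06 to 0.20). The libraries with Cre mRNA also differed in other pairs. Between Tut1 KO and P53 KO, Nqo1 was at -1.21 (-2.50 to -0.057) from 9 and 24 reads, Mt3 at 0.32 (0.18 to 0.47), Fth1 at -0.27 (-0.33 to -0.20) and Mt1 at -0.17 (-0.24 to -0.11). Between Tut1 and P53 KO and Tut1 KO, Txnrd1 was at 0.74 (0.11 to 1.39), Mt3 at -0.21 (-0.36 to -0.057), Fth1 at 0.20 (0.14 to 0.27) and Ftl1 at 0.12 (0.062 to 0.18).

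**Figure D3:**
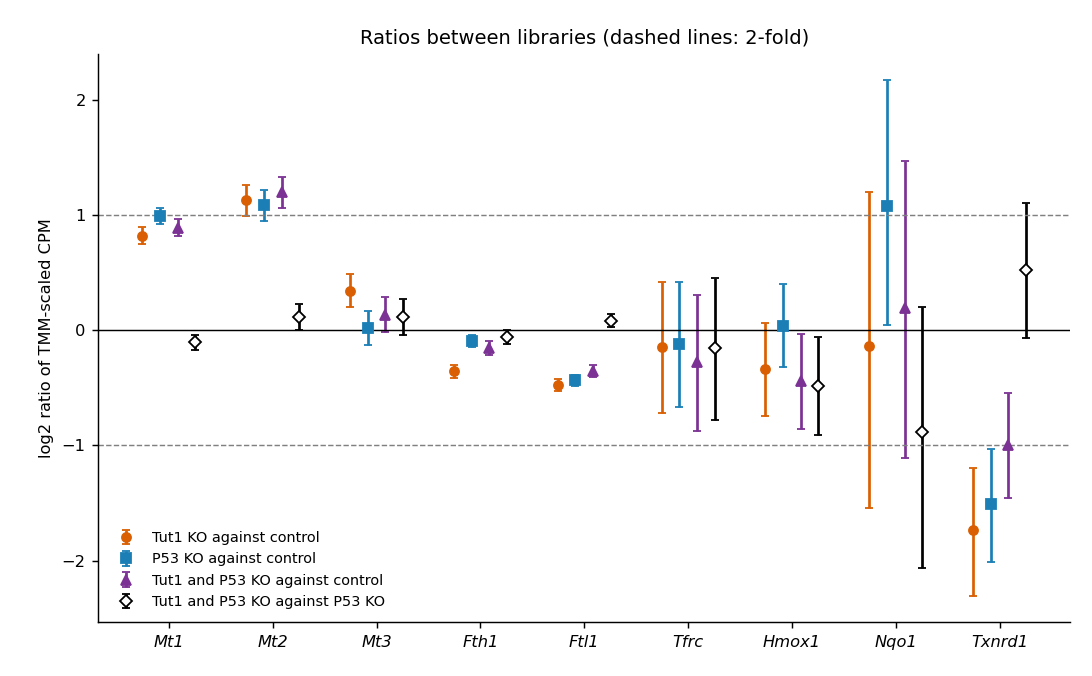
Log2 ratios of TMM-scaled CPM for the 9 genes (vertical axis) in the 3 comparisons with the control (filled) and between Tut1 and P53 KO and P53 KO (open), with exact 95% intervals for counting error. Mt2 lies above the 2-fold line in all 3 comparisons with the control, and the open symbols of the metallothioneins and ferritins lie near 0.

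A fit across all genes that sets the 3 libraries with Cre mRNA against the control takes its spread from these 3, which differ in genotype, and assumes that the lone control varies like them. In edgeR's quasi-likelihood test with Benjamini-Hochberg adjustment over 10596 genes, Mt2 had a log2 fold change of 1.14 (SE 0.218, adjusted p = 0.00467, higher in 3 of 3). Txnrd1 had -1.38 (SE 0.310, adjusted p = 0.00939, lower in 3 of 3). Both were called, at an adjusted p under 0.05 and at least 2-fold. Mt1 passed the p threshold at 0.90 (SE 0.189, adjusted p = 0.00685, higher in 3 of 3) but not the fold, which it did with the library total (1.03). Ftl1 was at -0.42 (SE 0.162, adjusted p = 0.0849), and Mt3, Fth1, Tfrc, Hmox1 and Nqo1 had adjusted p values of 0.454 to 0.716. The fit called 16.7% of all genes, beside which stand 2 of the 9. Nqo1 rested on 1 library, moving from 0.49 to 0.024 when P53 KO was left out.

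The study used these cells to look at splicing that depends on Tut1, with Trp53 deletion as a further control against effects of cell death. A model with both statuses as separate terms leaves 1 residual degree of freedom, and the Tut1 deletion itself could not be checked in these counts. For Tut1 status it called 0 of 9882 genes (0%), and 187 had an unadjusted p under 0.05. DESeq2 called 0 too, and 70 had such a p. Both numbers are below the share of 0.05 that would be met with no change in any gene. For Trp53 status it called 1 gene (0.0101%), which was none of the 9. In both terms all 9 genes had an adjusted p of 1.0. The largest log2 fold changes for Tut1 status were 0.62 for Mt2 (SE 0.431) and -0.61 for Txnrd1 (SE 0.616). Those for Trp53 status were 0.72 for Nqo1 (SE 0.829) and 0.58 for Mt2 (SE 0.431). For Mt2, Txnrd1 and Nqo1 the standard errors leave room for changes of 2-fold or more in either term. Fth1 and Ftl1 had smaller ones, at -0.21 (SE 0.368) and -0.20 (SE 0.362) for Tut1 status.

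Genes of the same pathways, outside the 9, were read from 4 lists. Of 18 tested genes of iron handling, the ratio rule marked 0 as higher and 1 as lower in Tut1 KO, 2 and 2 in P53 KO, and 0 and 0 in Tut1 and P53 KO, with median log2 ratios of -0.16, -0.097 and -0.16. The median of all genes was -0.0064, -0.019 and -0.0135, and the rule marked 12.7%, 12.5% and 10.3% of all genes as higher and 13.3%, 15.3% and 9.76% as lower in the 3 comparisons. Ireb2 and Aco1, which encode the iron regulatory proteins that bind the elements above, were near level, at 67.1, 72.0, 70.9 and 66.4 CPM and at 118, 121, 117 and 121 CPM. Ncoa4, the receptor that delivers ferritin for breakdown, was at 75.9, 52.2, 53.1 and 55.9 CPM. These 3 genes were named after their values were seen, for their roles. In the Cre mRNA fit 0 of 20 tested iron genes were called, beside 16.7% of all genes.

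Of 22 tested genes of the NRF2 pathway, 0 were marked as higher and 3 as lower in Tut1 KO, 2 and 2 in P53 KO, and 0 and 2 in Tut1 and P53 KO (medians -0.19, -0.039 and -0.14), near or below those shares of all genes in each. Keap1, which marks NRF2 for destruction, had 70, 10, 17 and 13 reads, or log2 ratios of -2.41 (-3.54 to -1.45), -1.85 (-2.71 to -1.07) and -2.00 (-2.98 to -1.13). Pgd, an enzyme of the pentose phosphate pathway that yields NADPH, had 286, 49, 50 and 96 reads, or -2.15, -2.33 and -1.14. Both were called in the Cre mRNA fit, at -2.05 (SE 0.372, adjusted p = 0.00336) and -1.78 (SE 0.356, adjusted p = 0.00558), 2 of 22 genes beside 16.7% of all. Other known NRF2 targets went either way: in P53 KO, Gclm and Me1, which serve glutathione and NADPH supply, were marked as higher, like Nqo1, while Txnrd1 and Pgd were marked as lower. Gclm and Me1 were named after their values were seen.

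Of 26 tested genes of peroxide, thioredoxin and glutathione metabolism, 0 were marked as higher and 4 as lower in Tut1 KO, 0 and 2 in P53 KO, and 1 and 3 in Tut1 and P53 KO (medians -0.22, -0.28 and -0.14). The shares of all genes were 12.7%, 12.5% and 10.3% higher and 13.3%, 15.3% and 9.76% lower, so these lower counts were near or below the background too. Gpx3, the secreted glutathione peroxidase, had 272, 75, 49 and 63 reads, or log2 ratios of -1.47, -2.28 and -1.68. Gss, which makes glutathione, had 65, 21, 23 and 13 reads, or -1.24, -1.31 and -1.89. Both were called in the Cre mRNA fit, at -1.78 (SE 0.297, adjusted p = 0.00226) and -1.44 (SE 0.368, adjusted p = 0.0172). The third and last call among the 26 genes, beside 16.7% of all genes, was Txnrd2, the mitochondrial counterpart of Txnrd1, at -1.22 (SE 0.334, adjusted p = 0.023), with 87, 21, 39 and 29 reads, also named after its values were seen.

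Of 15 tested genes of zinc and copper handling, 1 was marked as higher and 0 as lower in Tut1 KO, 2 and 0 in P53 KO, and 1 and 0 in Tut1 and P53 KO (medians 0.41, 0.47 and -0.043), beside 12.7%, 12.5% and 10.3% of all genes higher and 13.3%, 15.3% and 9.76% lower. Atp7a, the copper transporter of most tissues, had 23, 58, 72 and 43 reads, or log2 ratios of 1.73 (1.01 to 2.49), 1.84 (1.14 to 2.58) and 1.33 (0.57 to 2.13), and was called in the Cre mRNA fit at 1.65 (SE 0.387, adjusted p = 0.0116). Atp7a lies on X and had the most reads in the libraries with Xist reads, and the part of sex in its values was not tested, although Tut1 and P53 KO, with 0 Xist reads like the control, was also above it. Beside 16.7% of all genes, that fit also called 1 of 16 zinc and copper genes as lower, the zinc transporter Slc39a11, at -3.04 (adjusted p = 0.045) from 15, 2, 0 and 2 reads. Mtf1, which encodes the metal sensor that drives Mt1 and Mt2, had 52, 40, 46 and 26 reads, or 13.1, 13.2, 13.2 and 8.81 CPM, and did not meet the ratio rule in any comparison. Slc30a1, a zinc exporter that MTF1 also controls, had 5, 9, 3 and 4 reads and was too low to test. Slc39a11, Mtf1 and Slc30a1 were named after their values were seen, the latter pair for their roles. Between Tut1 and P53 KO and P53 KO, where the rule marked 4.68% of all genes as higher and 2.56% as lower, it marked 0 and 2 of the zinc and copper genes, the zinc transporter Slc30a9 and the copper transporter Atp7b (median of the list -0.22). In the same comparison it marked Pgd (1.18) as higher in the NRF2 list and Prdx3, the mitochondrial peroxiredoxin, in the peroxide list, with none lower in either, and none in the iron list. The medians of the iron, NRF2 and peroxide lists there were 0.059, 0.033 and 0.147, beside 0.034 over all genes. Slc30a9, Atp7b and Prdx3 were named after their values were seen.

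**Figure D4:**
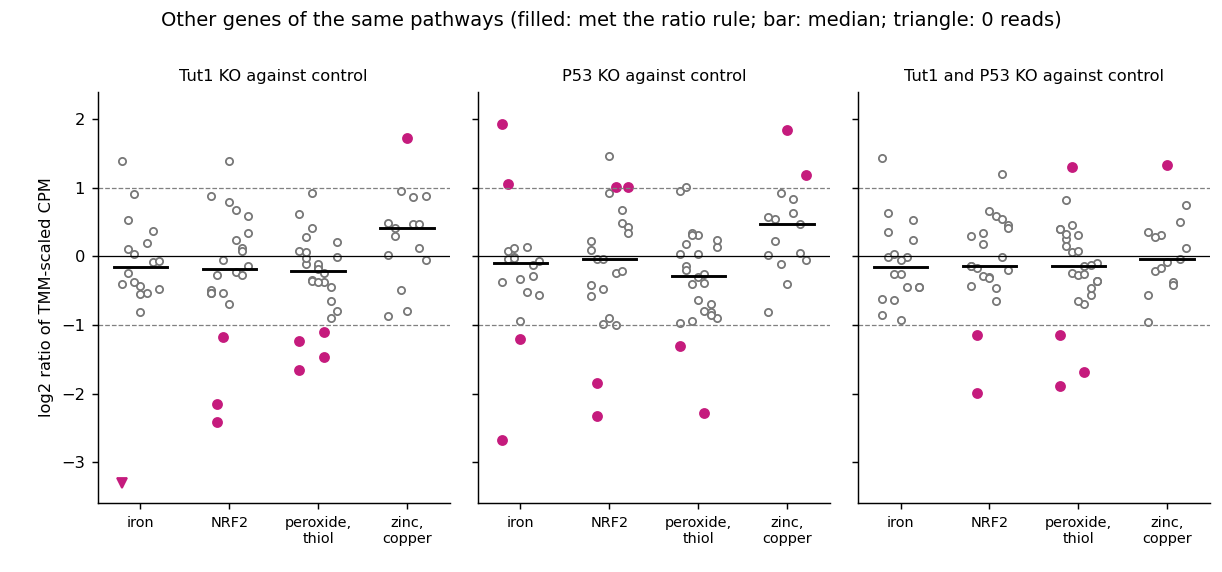
Log2 ratios to the control (vertical axis) of the tested genes of 4 lists in each library with Cre mRNA, where filled points met the ratio rule, bars are medians and the triangle marks Slc11a2, with 22 reads in the control and 0 in Tut1 KO. Most genes of each list lie between the dashed 2-fold lines, and the medians lie between -0.28 and 0.47.

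Patterns over the 4 libraries were also compared as the root mean square difference between centred log2(CPM + 0.5) values, among 6683 genes of at least 10 CPM on average, which leaves out Nqo1. Mt1 and Mt2 differed by 0.134 and each from Mt3 by 0.364 and 0.434. Fth1 lay 0.125 from Ftl1, 0.12 from Tfrc and 0.152 from Hmox1. Txnrd1 lay at least 0.469 from each of the other members compared. The genes nearest to Mt2 were Tbl1x (0.00776), Zfp608 (0.0209) and Ifitm2 (0.024), those nearest to Mt1 were Nsun2, Mbd2 and Zfp105 (0.0158 to 0.0273), and those nearest to Mt3 were Vps41, D730003I15Rik and Hspb11 (0.0308 to 0.0373). Those nearest to Fth1 were Etf1, Rbbp8 and Gm12033, to Ftl1 Psmb5, Ube2a and Parp1, and to Tfrc Usp4, Rad23b and Atg16l1. Those nearest to Hmox1 were Tub, Igfbp3 and 2310009B15Rik, and to Txnrd1 Ncapd2, Echdc1 and Acss2 (0.0364 to 0.0503). Tbl1x and Ube2a lie on X, where sex differed between the libraries. With only 4 libraries many genes share a pattern, and nearness describes these values alone.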

How the data were processed

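Raw read counts per isoform, not normalized, were deposited by the authors in a single table covering the 4 libraries. Each row names its isoform and a gene or a position. The build was mm10 per the labels. The study's long-read methods, written for dissected pallium, name minimap2 for alignment and FLAIR for splicing events. They do not say separately which aligner and counter gave the counts of these cells. Isoform counts were summed per gene, and symbols and positions came from GENCODE M21. Entries without a gene were left out of library sizes and tests. Ratios between libraries used TMM-scaled CPM with exact 95% intervals and were marked at 2-fold or more with an interval that leaves out no change. edgeR 4.0.16 (R 4.3.3, quasi-likelihood, TMM, default filter) was the main test and DESeq2 1.42.0 the alternative, each called at an adjusted p under 0.05 with at least 2-fold. Standard errors were obtained by dividing each log2 fold change by the root of its F statistic. Isoform shares were compared with Fisher's exact test where an isoform had 10 or more reads summed over a pair of libraries and its gene had 20 or more in both. Ratio and fit code was tested on simulated data. All 9 genes are named. Pathway genes are named where they met the ratio rule in all 3 comparisons with the control (at most 6 per list and direction), isoforms at 10% of their gene's reads in a library, and others as stated. The 9 genes and the lists were chosen with earlier results of these data known. Promoters came from RefSeq.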

Additional observations from a re-analysis of the deposited data

Results flagged for a closer look

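The contrast of Tut1 with Trp53 intact and with Trp53 deleted had opposite signs, with counting intervals that leave out no change on both sides, for Mt1 and Ftl1. The difference was not tested, since each group had 1 library. Mt1 had a log2 ratio of 0.82 in Tut1 KO against the control and of -0.11 in Tut1 and P53 KO against P53 KO. Ftl1 had -0.47 and 0.082 in the same order. Txnrd1 also had opposite signs, at -1.74 and 0.52, but the interval of the second (-0.064 to 1.11) spans no change. These intervals are on the TMM scale. The second Ftl1 ratio is small beside the scaling, at 0.048 with DESeq2 size factors and 0.050 without the ribosomal RNA gene in the library size, while the median of all genes on the TMM scale was 0.034. The first contrast of each also sets Cre mRNA against no Cre mRNA. Outside the gene counts, entries without a gene within 1000 bases of Tfrc had 26 reads in the control and 44, 54 and 36 in the others. Their log2 ratios to the control were 1.15, 1.25 and 0.90, while all entries without a gene stood at 0.94, 0.86 and 0.72.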

How the results depend on the processing

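No paired analysis was possible because each group has 1 library and the labels carry no replicate numbers. Mt2 and Txnrd1 kept their direction and their call in the Cre mRNA fit under every alternative run: DESeq2, library totals, DESeq2 size factors, no filter on low counts, and each library with Cre mRNA left out. DESeq2 called 974 genes in all where edgeR called 1769, and leaving out 1 library gave 1435 to 2403. Trp53 status called 2 genes with no filter and 0 without the Tut1 term. Hmox1 turned in Trp53 status, from -0.031 to 0.035, with library totals. In Tut1 and P53 KO against the control the ratio rule marked 2 of the 9 genes with library totals (Mt1 joined), 2 with DESeq2 size factors or without the ribosomal RNA gene (Txnrd1 joined), and 3 at 1.5-fold, in place of 1. In P53 KO it marked 4 with library totals (Mt1 joined, at 1.11) and 2 without the ribosomal RNA gene (Nqo1 was lost), in place of 3. At 20 points the isoform calls fell from 1597 to 870 in Tut1 KO, from 1710 to 949 in P53 KO, from 1224 to 606 in Tut1 and P53 KO against the control, and from 227 to 88 against P53 KO, and those of the 9 genes from 4 to 3 in Tut1 KO and from 2 to 1 in Tut1 and P53 KO. With at least 50 reads of the gene in both libraries, calls in the 9 genes fell to 0 in Tut1 KO, where Txnrd1 and Tfrc had too few reads to test, and to 1 in P53 KO, where Txnrd1 did. Mt1 passed 2-fold in the Cre mRNA fit with library totals (1.03). The cause of the other differences was not tested. Every comparison with the control rests on that 1 library.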
